A study of Mus musculus with 25 samples.

Results

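A set of 10 genes best known from cartilage and bone was followed through the aortas of hyperlipidemic mice: Sox9, Runx2, Col2a1, Col11a1, Acan, Hapln1, Comp, Chad, Cytl1 and Ibsp. They were taken by symbol from an expression table of 23284 genes, and all 10 were found in it. They were selected on their FPKM levels in these same libraries, so their own levels and differences are given as a description, with no difference tested. RNA of whole aortas from male mice of C57BL/6J background was sequenced in 25 libraries. EKO mice lack Apoe and DKO mice lack both Apoe and Apoa1, so that loss of Apoe is shared by every group. From 8 weeks of age the animals received either a normal laboratory diet (NLD, chow) or a Western diet (WD) for 6 or 22 weeks. This gave 8 groups, of which DKO on NLD for 6 weeks holds 4 libraries and each of the other 7 groups holds 3. The study's methods give n = 3 for the sequenced aortas, so whether the 4 libraries of the former come from as many animals is unknown. The EKO libraries are labelled as a re-analysis of earlier samples, so a difference in their handling and the genotype cannot be told apart.

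Values are FPKM, fragments per kilobase of transcript scaled to the mapped fragments of the library, and because they are divided by gene length they can be compared between genes. Library depth cannot be read from FPKM and is unknown. Apoe transcript was present at 2.97 to 20.7 FPKM in all 24 complete libraries, and Apoa1 lay between 0 and 1.97 FPKM in both genotypes, so that Apoa1 level did not separate EKO from DKO. Replicate 2 of EKO on WD for 22 weeks is incomplete: its values stop on chromosome 15, and 17675 genes are listed there at 0 against 5509 to 6504 in the other libraries. Zeros of that library were taken as missing, which leaves values for only Chad, Sox9 and Hapln1 among the 10 genes and 2 libraries of that group for the other 7. A further library stands apart. In replicate 1 of DKO on WD for 22 weeks the club cell secretory protein gene Scgb1a1, a marker of airway epithelium, reached 6187 FPKM against 2.34 to 91.4 FPKM in the other 23 complete libraries, and the summed level of 10 airway markers was 6601 FPKM against 9.05 to 122 FPKM. Differences of the 10 genes that use this library are given with and without it. Because whole aortas were sequenced, fewer cells of a type and less RNA per cell cannot be told apart.

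Cartilage is built from a collagen II network that carries aggrecan bound to hyaluronan, and smaller proteins connect the network to the cells. The transcription factor Sox9 directs the chondrocyte program, whereas Runx2 directs hypertrophic chondrocytes and osteoblasts, which secrete a mineralizing matrix rich in bone sialoprotein. Chondrocyte-like cells and mineral deposits are known features of advanced atherosclerotic plaques in Apoe-deficient mice, and several of these genes are also used by normal vascular smooth muscle cells and fibroblasts.

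Promoter sequence was available for 7 of the 10 genes in the RefSeq table of build GRCm38.p6 (mm10), namely Chad, Acan, Runx2, Ibsp, Cytl1, Hapln1 and Col11a1. The 250 bases before a RefSeq transcription start are printed for 4 of these 7 genes, which carry the contrasts described below. Chad and Ibsp were higher on WD at 22 weeks in both genotypes, and Acan and Runx2 had their highest level in EKO. The windows of Chad, Ibsp, Acan and Cytl1 end directly before the mm10 span of the gene. Those of Runx2, Hapln1 and Col11a1 lie partly inside that span. The Runx2 window begins at 44814628, whereas the span of this minus-strand gene ends at 44814797. Capitals mark every match to the letters TGTGGT (the core bound by RUNX factors), ACAAAG or ACAATG (the core bound by SOX factors) and TATAAA (the TATA box), each searched on both strands. No matches overlapped.
Chad promoter, chr11:94564797-94565046, plus strand: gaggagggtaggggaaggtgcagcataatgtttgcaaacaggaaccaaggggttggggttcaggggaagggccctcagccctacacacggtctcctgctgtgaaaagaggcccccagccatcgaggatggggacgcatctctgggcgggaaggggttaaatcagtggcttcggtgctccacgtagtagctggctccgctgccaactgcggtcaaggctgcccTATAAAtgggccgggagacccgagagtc
Ibsp promoter, chr5:104299037-104299286, plus strand: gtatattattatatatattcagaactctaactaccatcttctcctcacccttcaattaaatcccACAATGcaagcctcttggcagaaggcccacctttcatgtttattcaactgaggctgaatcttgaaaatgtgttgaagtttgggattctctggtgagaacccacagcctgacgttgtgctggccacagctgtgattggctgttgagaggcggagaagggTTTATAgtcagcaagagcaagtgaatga
Acan promoter, chr7:79052976-79053225, plus strand: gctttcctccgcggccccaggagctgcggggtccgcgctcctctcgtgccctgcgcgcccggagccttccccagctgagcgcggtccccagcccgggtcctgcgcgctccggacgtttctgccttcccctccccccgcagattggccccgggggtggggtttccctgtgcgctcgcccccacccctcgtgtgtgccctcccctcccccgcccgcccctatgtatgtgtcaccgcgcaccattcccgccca
Runx2 promoter, chr17:44814628-44814877, minus strand: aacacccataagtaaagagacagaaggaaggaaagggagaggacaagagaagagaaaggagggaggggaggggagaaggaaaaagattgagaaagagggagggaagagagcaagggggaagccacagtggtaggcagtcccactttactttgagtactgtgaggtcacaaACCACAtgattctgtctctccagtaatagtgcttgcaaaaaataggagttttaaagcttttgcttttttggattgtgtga

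The Chad and Ibsp windows each held a TATAAA match that began 28 bases before the start, on the plus strand in Chad and on the opposite strand in Ibsp. A TATAAA match at any position and on either strand occurred in 13% of all 27025 promoters of the same length. The shares that follow were counted in the same way. The Ibsp window also held a SOX core at 186 bases before the start, which 25.5% of all promoters contained. The Runx2 window held a RUNX core at 80 bases before the start used, which 14.2% contained. This Runx2 match lies inside the mm10 span of the gene. The Acan window, with 74.4% G and C, held none of these letters, nor did those of Cytl1 and Col11a1. The window of Hapln1 held a RUNX core. These matches describe the letters in the windows and nothing more.

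The 10 genes covered a wide range of levels. Cytl1 was the most abundant, with a mean of 207 FPKM over the libraries, followed by Comp at 22.1 FPKM. Chad, Acan, Col2a1 and Ibsp had means of 3.07, 2.37, 1.97 and 1.94 FPKM. Sox9, Hapln1, Runx2 and Col11a1 lay under 1 FPKM on average, at 0.807, 0.491, 0.436 and 0.147 FPKM. A mean of at least 1 FPKM was required for the fits across all genes, which 12849 genes met, so 6 of the 10 genes entered those fits and 4 did not. Col2a1 and Ibsp passed only through the groups on WD for 22 weeks, since the means of their other 6 groups reached at most 0.408 and 0.332 FPKM, respectively. The standard error (SE) of each difference given below rests on a spread pooled over all groups. For Chad, Col2a1 and Ibsp it can understate the spread in DKO on WD for 22 weeks, where their SD was largest.

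**Figure D1:**
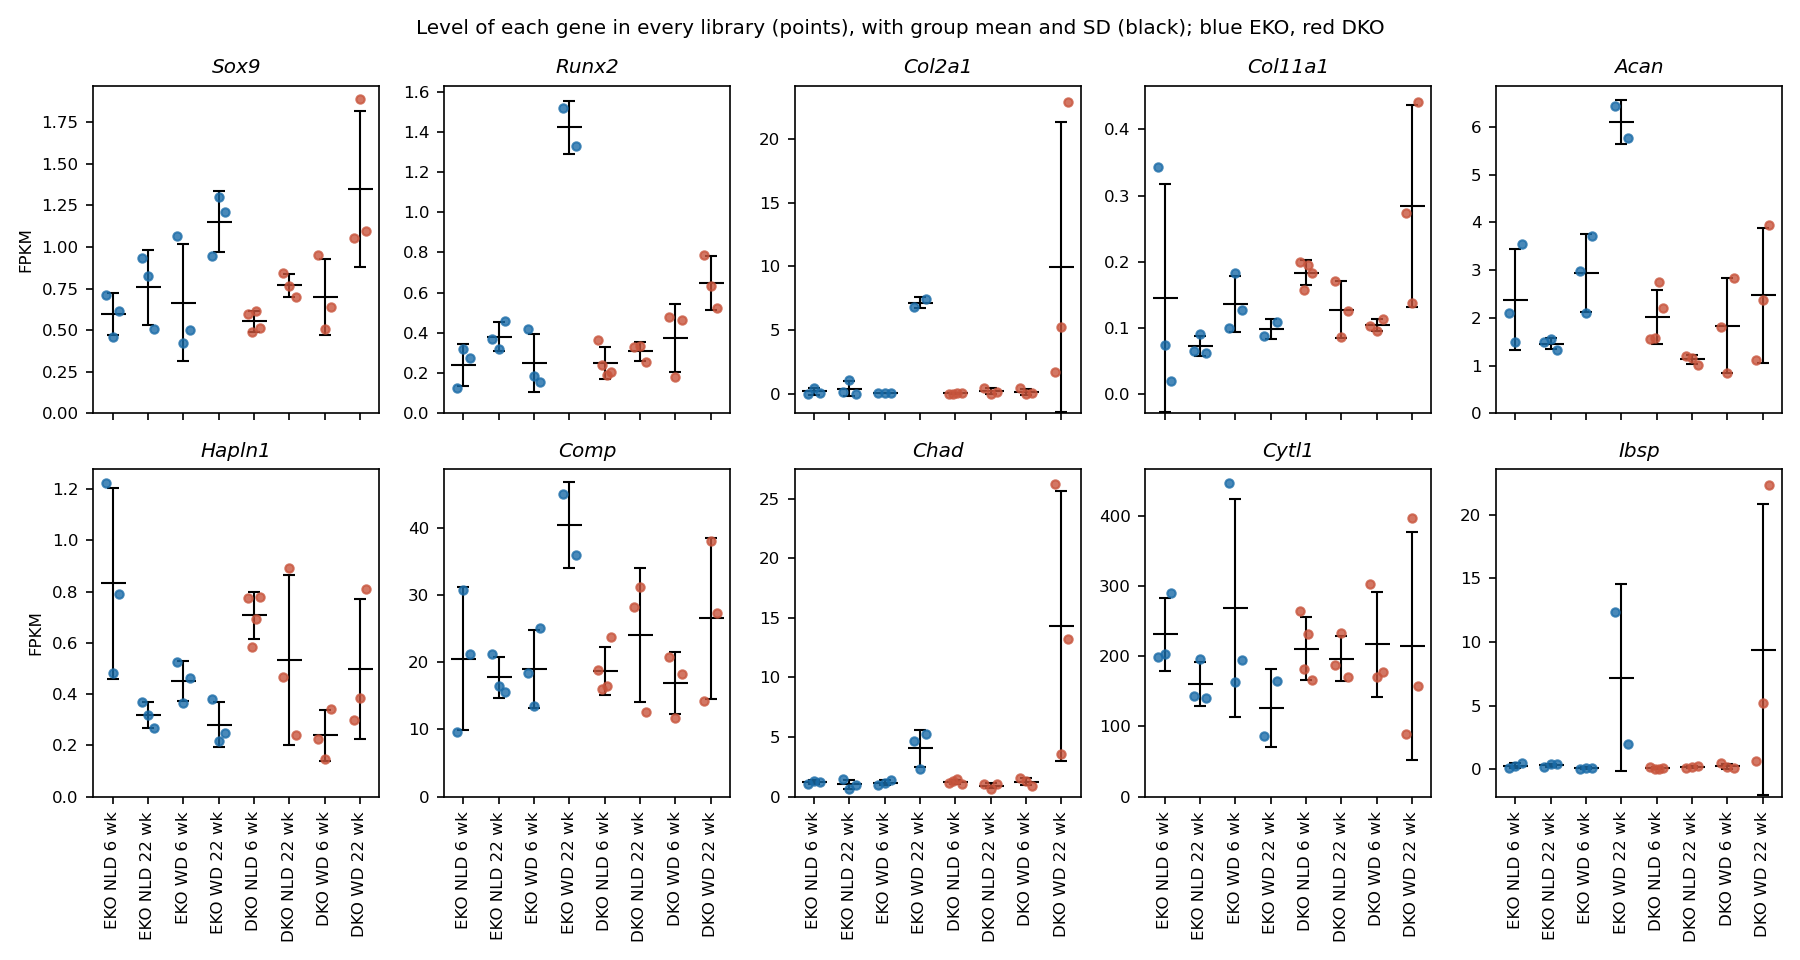
FPKM of the 10 genes in each of the 8 groups of genotype, diet and weeks, on linear axes that differ between genes. Each point is 1 library, the black line is the group mean and the bars are 1 SD (n = 2 to 4). Col2a1, Chad and Ibsp are near the bottom of their axes in the 6 groups other than WD at 22 weeks, whereas Comp and Cytl1 are present in every group.

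Sox9, the chondrocyte regulator, was expressed at a low level in every library. Its levels in EKO on WD for 22 weeks were 0.949, 1.30 and 1.21 FPKM, and in DKO on the same diet and time 1.06, 1.89 and 1.10 FPKM. In the 19 libraries of the other 6 groups it ranged from 0.421 to 1.07 FPKM with a median of 0.615 FPKM. Of the 6 libraries on WD for 22 weeks, 4 exceeded every other library, and the ranges overlapped. Against NLD at 22 weeks the level of Sox9 was higher by 0.30 ± 0.15 (SE) in EKO and by 0.39 ± 0.15 in DKO on the log2(FPKM + 1) scale, in a fit without the filter on low values. The DKO value was 0.48 ± 0.16 without the library that carries airway markers. That scale understates changes of genes with low FPKM.

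Runx2, the master regulator of osteoblasts, lay under the filter. On WD for 22 weeks it measured 1.52 and 1.33 FPKM in the 2 EKO libraries and 0.790, 0.632 and 0.525 FPKM in the 3 DKO libraries. The remaining 19 libraries lay between 0.125 and 0.481 FPKM, with a median of 0.317 FPKM. All 5 libraries on WD for 22 weeks were thus above all others, and the 2 EKO libraries were above the 3 DKO libraries without overlap. In the fit without the filter, WD was higher than NLD at 22 weeks by 0.81 ± 0.11 (SE) in EKO and by 0.33 ± 0.10 in DKO on the log2(FPKM + 1) scale, and EKO was higher than DKO on WD by 0.56 ± 0.11. Without the library that carries airway markers the DKO value was 0.27 ± 0.11 and the last value 0.62 ± 0.12. The highest of the 3 DKO values came from replicate 1, the library that carries the airway markers.

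Col2a1, which encodes the collagen that defines hyaline cartilage, was almost absent outside the 2 groups on WD for 22 weeks. In the 19 libraries of the other groups its median was 0.0454 FPKM, and the highest was 1.08 FPKM in replicate 2 of EKO on NLD for 22 weeks. On WD for 22 weeks it reached 6.84 and 7.45 FPKM in EKO. The 3 DKO libraries held 1.67, 5.20 and 22.9 FPKM. Every one of these 5 libraries exceeded every other library, and the 2 EKO values lay inside the DKO range. The DKO group mean was 9.94 ± 11.4 FPKM (SD, n = 3) against 7.15 ± 0.429 FPKM (n = 2) in EKO. On the log2(FPKM + 1) scale WD exceeded NLD at 22 weeks by 2.61 ± 0.54 (SE) in EKO and by 2.63 ± 0.48 in DKO, the latter being 3.35 ± 0.39 without the library that carries airway markers.

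Col11a1, which codes for a chain of the collagen that nucleates the thin fibrils of cartilage, did not follow Col2a1. It lay between 0.0194 and 0.343 FPKM in the 19 other libraries. It measured 0.0869 and 0.109 FPKM in EKO on WD for 22 weeks and 0.273, 0.137 and 0.442 FPKM in DKO. Only replicate 3 of DKO, the library with the highest Col2a1, exceeded all others.

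Acan encodes aggrecan, the large proteoglycan that gives cartilage its resistance to compression. It was present in all groups and was highest in EKO on WD for 22 weeks, at 6.43 and 5.77 FPKM. DKO on the same diet and time held 1.11, 2.36 and 3.94 FPKM, which overlapped with the 0.846 to 3.72 FPKM of the 19 other libraries. EKO on NLD for 22 weeks held 1.50, 1.55 and 1.33 FPKM. The 2 EKO libraries were therefore apart from the rest, while replicate 1 of DKO was as low as chow-fed aortas. WD exceeded NLD at 22 weeks by 1.53 ± 0.32 (SE) in EKO and by 0.62 ± 0.28 in DKO on the log2(FPKM + 1) scale, and EKO exceeded DKO on WD by 1.12 ± 0.32. Without replicate 1 of DKO the DKO value was 0.94 ± 0.28 and the last value 0.80 ± 0.30. In both genotypes on NLD, Acan was lower at 22 than at 6 weeks, by -0.41 ± 0.28 in EKO and -0.49 ± 0.26 in DKO.

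Hapln1, the link protein that fastens aggrecan to hyaluronan, did not accompany Acan. Its highest group mean was 0.832 ± 0.373 FPKM (SD, n = 3) in EKO on NLD for 6 weeks, with 1.22, 0.481 and 0.792 FPKM in the 3 libraries. On WD for 22 weeks it measured 0.380, 0.215 and 0.248 FPKM in EKO and 0.299, 0.384 and 0.810 FPKM in DKO. None of these 6 libraries was above the range of the other groups. In the fit without the filter, Hapln1 was lower at 22 than at 6 weeks in EKO on NLD by -0.46 ± 0.15 (SE) and lower on WD than on NLD at 6 weeks in DKO by -0.47 ± 0.14, on the log2(FPKM + 1) scale.

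Comp, cartilage oligomeric matrix protein, is a pentameric protein of cartilage and tendon that vascular smooth muscle cells also make. It was well expressed in every library, from 9.58 to 31.2 FPKM in the 19 libraries outside WD at 22 weeks. EKO on WD for 22 weeks held 45.0 and 35.9 FPKM, which were above that range. DKO held 14.2, 38.0 and 27.4 FPKM, so that only replicate 2 was above it. The difference between WD and NLD at 22 weeks was 1.15 ± 0.44 (SE) in EKO and 0.13 ± 0.39 in DKO on the log2(FPKM + 1) scale, and 0.51 ± 0.40 in DKO without the library that carries airway markers.

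Chad encodes chondroadherin, a leucine-rich repeat protein that binds collagen II and the integrins of chondrocytes. Outside WD at 22 weeks it was present at a steady low level, with 0.662 to 1.54 FPKM in 19 libraries and a median of 1.11 FPKM. EKO on WD for 22 weeks held 4.63, 2.31 and 5.21 FPKM. DKO on WD for 22 weeks held 26.2, 3.55 and 13.2 FPKM. All 6 libraries exceeded all 19 others, and the highest value came from the library with the airway markers. At 22 weeks WD exceeded NLD by 1.29 ± 0.39 (SE) in EKO and by 2.67 ± 0.39 in DKO on the log2(FPKM + 1) scale, the latter being 2.08 ± 0.32 without that library. EKO lay below DKO on WD by -1.31 ± 0.39, and by -0.72 ± 0.32 without that library.

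Cytl1 encodes a small secreted cytokine-like protein that chondrocytes make. Although the most abundant of the 10 genes, it was not higher on WD at 22 weeks. It measured 86.6 and 165 FPKM in EKO and 89.1, 398 and 157 FPKM in DKO, against 141 to 447 FPKM in the other 19 libraries. The lowest value of each genotype lay under that range, in replicate 1 of EKO and in replicate 1 of DKO. On WD, Cytl1 was lower at 22 than at 6 weeks in EKO by -1.01 ± 0.49 (SE) on the log2(FPKM + 1) scale, while the value for DKO was -0.24 ± 0.44 and became 0.26 ± 0.42 without the library that carries airway markers.

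Ibsp encodes integrin-binding sialoprotein, or bone sialoprotein, a mineral-nucleating protein of bone. It lay between 0 and 0.496 FPKM in the 19 libraries outside WD at 22 weeks. On WD for 22 weeks it reached 12.4 and 2.04 FPKM in EKO. The 3 DKO libraries held 0.655, 5.23 and 22.3 FPKM. All 5 libraries were above all others, replicate 1 of DKO by the least. Group means were 7.21 ± 7.31 FPKM (SD, n = 2) and 9.41 ± 11.4 FPKM (n = 3), so the spread within each group was as large as its mean. WD exceeded NLD at 22 weeks by 2.26 ± 0.67 (SE) in EKO and by 2.39 ± 0.60 in DKO on the log2(FPKM + 1) scale, and by 3.35 ± 0.46 in DKO without replicate 1.

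The order of the 8 groups by mean level was the same at the top for Chad, Col2a1, Ibsp and Sox9, with DKO on WD for 22 weeks first and EKO on WD for 22 weeks second. The ranges of these 2 groups overlapped in all 4 genes. The range of the second group did not overlap that of the third in any of them. For Sox9 it began at 0.949 FPKM and overlapped EKO and DKO on WD for 6 weeks, which reached 1.07 and 0.951 FPKM. The genes were chosen on these levels, and the share of all genes ordered in this way was not counted. Nothing is read from the order. Acan, Comp and Runx2 had EKO on WD for 22 weeks first. For Acan the next group was EKO on WD for 6 weeks, at 2.94 ± 0.811 FPKM (SD, n = 3), and its range did not overlap that of the first. For Comp the next group was DKO on WD for 22 weeks and the ranges overlapped. For Cytl1 each group overlapped its neighbour in the order.

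The same differences were set side by side for the 6 genes above the filter. Because these genes were chosen for their levels in these libraries, and Col2a1 and Ibsp entered the fits through the groups in which they are high, none of their differences is given a test. At 6 weeks the group means of Col2a1 were 0.180 and 0.0656 FPKM in EKO on NLD and WD, and 0.0256 and 0.158 FPKM in DKO. Those of Ibsp were 0.297 and 0.119 FPKM in EKO and 0.0830 and 0.258 FPKM in DKO.

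The 2 times were then compared within each diet. On WD at 22 against 6 weeks, Chad was higher in EKO by 1.18 ± 0.39 and in DKO by 2.43 ± 0.39 (SE) on the log2(FPKM + 1) scale, or 1.84 ± 0.32 without the library that carries airway markers. Col2a1 was higher in EKO by 2.93 ± 0.54 and in DKO by 2.68 ± 0.48, or 3.41 ± 0.39 without that library. Ibsp was higher in EKO by 2.51 ± 0.67 and in DKO by 2.32 ± 0.60, or 3.27 ± 0.46 without it. These 3 genes had the largest values of the 6 in both genotypes. Acan differed by 0.87 ± 0.32 in EKO and 0.27 ± 0.28 in DKO, or 0.59 ± 0.28 without that library. Comp differed by 1.08 ± 0.44 in EKO and 0.55 ± 0.39 in DKO, or 0.93 ± 0.40 without it. On NLD the differences between 22 and 6 weeks ranged from -0.52 ± 0.44 (SE, Cytl1) to 0.20 ± 0.48 (Col2a1) in EKO and from -0.49 ± 0.26 (Acan) to 0.26 ± 0.37 (Comp) in DKO.

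**Figure D2:**
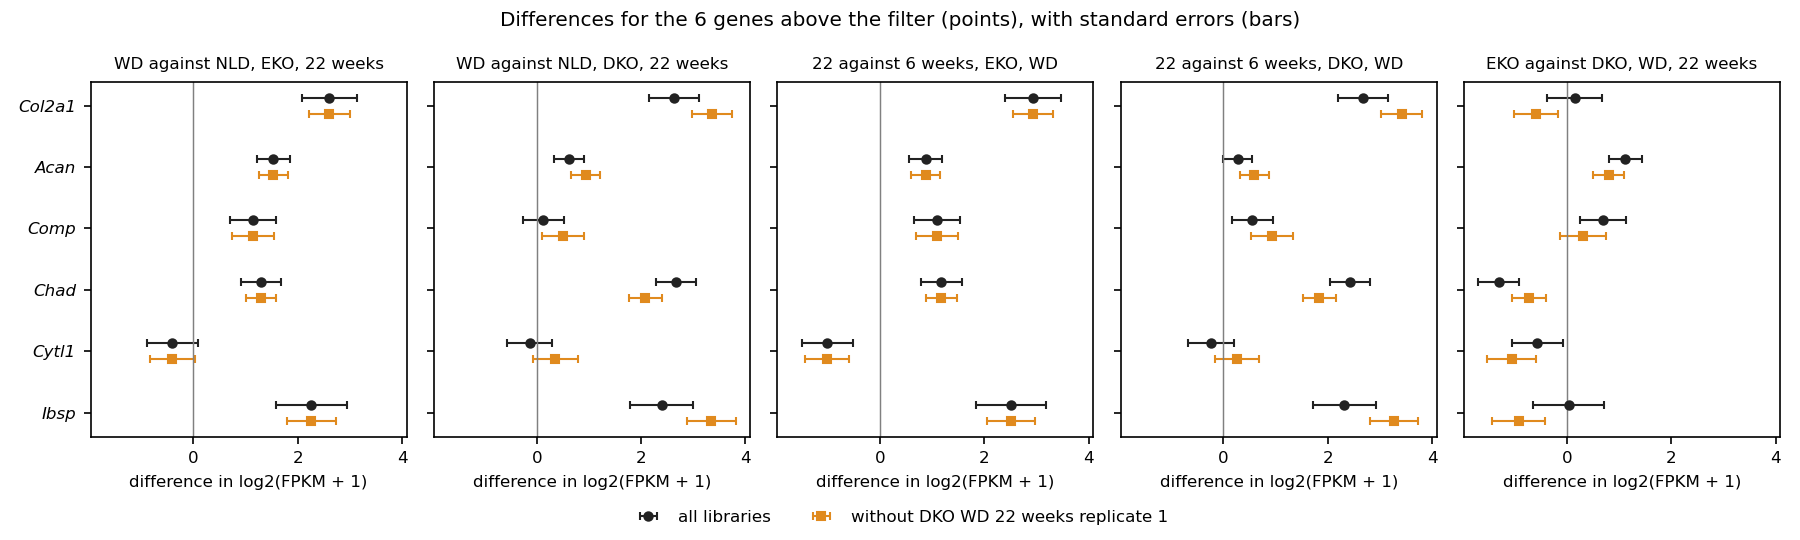
Difference in log2(FPKM + 1) for the 6 genes above the filter in 5 comparisons, with the standard error of the fit as bars. Black points use all libraries and orange squares leave out replicate 1 of DKO on WD for 22 weeks; Col2a1, Chad and Ibsp lie to the right of 0 in both genotypes for diet and time, and the DKO values of Col2a1 and Ibsp move further right, those of Chad further left, without that library.

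Between the genotypes on WD at 22 weeks, Col2a1 and Ibsp differed by 0.15 ± 0.54 (SE) and 0.03 ± 0.67 on the log2(FPKM + 1) scale, and by -0.58 ± 0.42 and -0.92 ± 0.51 without the library that carries airway markers, so their sign turned. The response to WD at 22 weeks was also set against genotype directly, as the value in EKO minus that in DKO. It was 0.91 ± 0.42 for Acan and 1.02 ± 0.59 for Comp with all libraries, and 0.59 ± 0.39 and 0.64 ± 0.57 without that library. For Chad it was -1.38 ± 0.55, and -0.79 ± 0.43 without it. For Col2a1 it was -0.02 ± 0.72, and -0.75 ± 0.55 without it. For Ibsp it was -0.13 ± 0.90, and -1.09 ± 0.66 without it.

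The 3 aortas of DKO on WD for 22 weeks differed from each other in which genes were high. Replicate 1 had the highest Chad of all libraries together with the lowest Col2a1, Ibsp, Acan and Comp of its group. Replicate 3 had the highest Col2a1 and Ibsp of all libraries, with 13.2 FPKM of Chad. Replicate 2 had intermediate levels of Col2a1 and Ibsp and the highest Comp, Cytl1 and Sox9 of its group. In replicate 1, 8 smooth muscle markers summed to 1164 FPKM against 2436 to 11449 FPKM in the other complete libraries, the lowest sum of all. Of 26 further cartilage matrix genes outside the 10, 9 were highest of the 3 aortas in replicate 1, 5 in replicate 2 and 12 in replicate 3. Ucma, at 1.38, 0.128 and 0.276 FPKM in replicates 1, 2 and 3, was among the first, and Col10a1, at 0.536, 0.229 and 2.85 FPKM, and Clec3a, at 0.332, 0.601 and 2.88 FPKM, among the last. The summed airway markers of replicates 2 and 3 were 36.5 and 17.1 FPKM, within the range of the other groups, and 2 and 4 of the 10 airway markers were at 0 there. Col2a1, Chad and Ibsp exceeded every library outside WD at 22 weeks in replicates 1, 2 and 3 of DKO alike. These 3 genes were chosen on such levels, so nothing is read from that. The part of the airway tissue in the levels of replicate 1 was not tested.

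**Figure D3:**
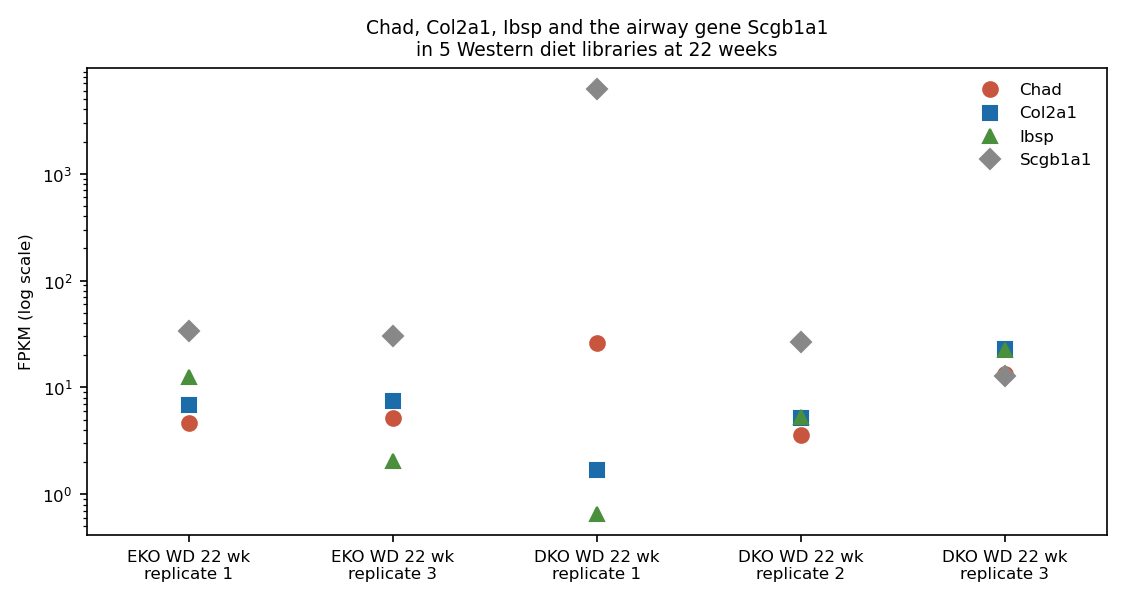
FPKM on a log axis of Chad (circles), Col2a1 (squares), Ibsp (triangles) and the airway gene Scgb1a1 (diamonds) in the 5 complete libraries of WD at 22 weeks. Scgb1a1 is at 6187 FPKM in replicate 1 of DKO and at 12.7 to 33.6 FPKM in the other 4, and only in replicate 1 of DKO is Chad the highest of the other 3 genes.

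Correlations among the 6 genes that entered the fits are given as a description over the 24 complete libraries, which share diet, time and genotype. On log2(FPKM + 1) values Col2a1 and Ibsp had a Pearson r of 0.94. Chad had an r of 0.75 with Col2a1 and 0.65 with Ibsp, and these were 0.94 and 0.92 over the 23 libraries without the one that carries airway markers. Acan had an r of 0.56 with Col2a1 and 0.53 with Comp, and Cytl1 had values between -0.45 and 0.04 with the others. The r values among Col2a1, Ibsp and Chad were higher than those of any of them with Acan, Comp or Cytl1. The genes were chosen on their levels in these libraries, and Col2a1, Ibsp and Chad are highest in the same groups. An r over all libraries therefore carries that choice and the step between groups, and no shared variation is read from it. Whether these genes vary together within a group was not tested.

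Among all other genes in the fits, those whose levels were most like each of the 6 were found by the same r over the same 24 libraries. For Col2a1 these were AA467197 (r = 0.89), Mir374 (0.84) and Hgf (0.84), the gene of hepatocyte growth factor. AA467197 (0.84) and Mir374 (0.83) also led the list for Ibsp, followed by Grem1 (0.81), a secreted inhibitor of bone morphogenetic proteins. For Acan they were S100a4 (0.86), Sphk1 (0.83) and Tpm4 (0.81), and for Comp the complement genes C1ra (0.84) and C1rb (0.82) and then Galnt10 (0.82). C1ra and C1rb are near-identical copies between which reads can be split. Chad was most like Apobec3 (0.84), Serpina3g (0.82) and Glycam1 (0.81), and these values were 0.70, 0.72 and 0.59 without the library that carries airway markers. Cytl1 was most like Gstt3 (0.83), Amigo2 (0.82) and Klk10 (0.81). For the mean of the 6 standardized genes the closest were Osmr (0.87), the oncostatin M receptor, Frzb (0.85), a secreted Wnt antagonist known from cartilage, and Rin1 (0.84).

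Other genes of the same pathways were described from 6 lists of cartilage, bone and mineralization genes, which hold 127 genes without the 10, of which 86 passed the filter. Differences were called in limma at a Benjamini-Hochberg adjusted p under 0.05 over all 12849 genes. In EKO at 22 weeks 21 of the 86 were higher and 3 lower on WD, where 10.4% and 9.14% of all genes tested were, and the median difference was 0.03 against -0.06 over all genes tested, on the log2(FPKM + 1) scale. Without replicate 1 of EKO on WD, 12 of the 86 were called. In DKO 3 were higher and 2 lower, where 0.841% and 0.911% of all genes were, with a median of -0.12 against -0.09. This count was 0 without replicate 2 or replicate 3 of DKO on NLD, and 3, 15 and 2 without replicates 1, 2 and 3 of DKO on WD, and 0.726% of all genes were called without the first of these. It was also 3 without replicate 2 or replicate 4 of DKO on NLD for 6 weeks or replicate 3 of EKO on NLD for 6 weeks, and 2 without replicate 3 of DKO on NLD for 6 weeks. The lists were not alike in EKO. Cartilage matrix proteases (6 of 11 higher, median 0.80) and bone matrix genes (6 of 14 higher and 1 lower, median 0.43) lay above the median of all genes, whereas the cartilage matrix list had 1 of 11 higher and 1 lower (median -0.30) and the chondrocyte regulators 1 of 13 higher (median -0.24). Of the 26 cartilage matrix genes other than the 10, 15 were under the filter.

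Spp1, osteopontin, is made by macrophages as well as bone cells. In EKO it measured 364, 221 and 179 FPKM on NLD for 22 weeks and 6459 and 6317 FPKM on WD, a difference of 4.71 ± 1.29 (SE, adjusted p = 0.016 in limma). The groups did not overlap. Mmp13, collagenase 3 of hypertrophic cartilage, rose from 0.765 ± 0.268 FPKM (SD, n = 3) to 18.2 ± 2.19 FPKM (n = 2), a difference of 3.45 with an adjusted p of 8.6e-07 in limma. Mmp14, a membrane-bound collagenase, rose from 22.0 to 93.0 FPKM. Prg4, lubricin of the joint surface, rose from 7.99 ± 3.28 to 93.7 ± 65.9 FPKM (SD, n = 3 each; difference 3.24 ± 0.65, SE, adjusted p = 0.0018 in limma). Chadl, a chondroadherin-like gene, fell from 2.68 to 1.10 FPKM, opposite in direction to Chad. Of the RUNX family Runx1 rose from 1.13 to 5.55 FPKM (adjusted p = 7.8e-05 in limma) along with its partner Cbfb. The call of Cbfb was lost under 1 of 18 alternatives, without replicate 1 of EKO on WD for 22 weeks. That count omits the setting with the zeros of the partial library kept, under which its sign turned, to -0.69.

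Of 12 genes in the list of mineralization inhibitors and phosphate handling, 4 rose in EKO at 22 weeks and none fell. Tnfrsf11b, osteoprotegerin, the decoy receptor that restrains osteoclasts, rose from 6.14 ± 1.35 to 26.8 ± 6.43 FPKM (SD, n = 3 each; adjusted p = 0.0031 in limma). Enpp1, which makes pyrophosphate, rose from 3.62 ± 0.624 to 9.97 ± 5.45 FPKM (SD, n = 3 each; adjusted p = 0.0042 in limma). The other 2 were Slc20a1, a phosphate carrier, and Nt5e, which makes adenosine. Of 25 genes of the BMP pathway, 3 were higher and 1 lower in EKO, beside the 10.4% and 9.14% of all genes given above. Grem1 rose from 0.542 ± 0.316 FPKM (SD, n = 3) to 10.4 ± 5.97 FPKM (n = 2), with an adjusted p of 8.4e-06 in limma, and Id1, a target of BMP signaling, fell by 0.90 on the log2(FPKM + 1) scale. Sost, an inhibitor of Wnt signaling made by osteocytes and arterial smooth muscle, fell from 185 to 45.4 FPKM. Bglap, osteocalcin, stayed at or under 0.588 FPKM and Sp7, the osteoblast factor osterix, at or under 0.403 FPKM in all libraries with a value.

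In DKO the 5 genes past the threshold at 22 weeks were Prg4, Runx1 and Grem1, higher on WD, and Susd5 and Postn, lower. Prg4 rose from 3.87 ± 1.73 to 31.9 ± 16.2 FPKM (SD, n = 3 each; adjusted p = 0.045 in limma) and Runx1 from 1.02 ± 0.242 to 2.73 ± 0.786 FPKM (adjusted p = 0.039). Grem1 measured 2.73, 1.71 and 4.19 FPKM on WD against 0.454 to 0.925 FPKM on NLD (adjusted p = 0.037 in limma). Each of these calls was lost under several alternatives: Prg4 under 12 of 18, Grem1 under 11 of 17 and Runx1 under 8 of 17, and also Susd5 under 7 of 18 and Postn under 5 of 18. Postn, periostin, fell by 1.58 and Susd5, a hyaluronan-binding protein, by 1.78 on the log2(FPKM + 1) scale. Without the library that carries airway markers Postn, Susd5, Runx1 and Grem1 were not past the threshold, with adjusted p of 0.059, 0.11, 0.15 and 0.086 in limma. The 3 genes called in that fit were Prg4, Mmp13 and Tnfrsf11b, all higher on WD, with Tnfrsf11b named for DKO after its value was seen.

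The other comparisons of the 86 list genes gave these counts, beside the share of all genes called. Between the diets at 6 weeks 0 were called in EKO (0.335%), with 3 higher and 10 lower at an unadjusted p under 0.05 in limma, and 12 in DKO (5.2%). The 12 in DKO were 3 higher and 9 lower on WD, beside 201 and 467 of all genes. Between 22 and 6 weeks 21 were called in EKO on NLD (36.6%), 5 higher and 16 lower at 22 weeks, beside 3267 and 1441 of all genes. In EKO on WD 22 were called (19.2%), 16 higher and 6 lower, beside 1899 and 570 of all genes. In DKO 0 were called on NLD (0.0545%), with 2 higher and 8 lower at an unadjusted p under 0.05 in limma, and 1 on WD (0.226%). Between the genotypes 1 was called on NLD at 6 weeks (0.14%), 3 on NLD at 22 weeks (7.84%) and 0 on WD at 6 weeks (0.148%), the last with 18 higher and 2 lower at an unadjusted p under 0.05 in limma. The 3 on NLD at 22 weeks were all lower in EKO, beside 822 higher and 186 lower of all genes. The difference between EKO and DKO in the response to WD at 22 weeks was called for 11 (4.39%) and that in the response to time on WD for 9 (8.97%). Several of these counts rest on single libraries. For the diets in DKO at 6 weeks the count was 2, 4 and 3 without replicates 1, 3 and 4 on NLD, 1, 6 and 2 without replicates 1, 2 and 3 on WD, and 21 without the library that carries airway markers. For the diets in EKO at 6 weeks it was 1 without replicate 1 on NLD. For 22 against 6 weeks in EKO on NLD it was 13 and 10 without replicates 2 and 3 of 6 weeks and 13 without replicate 3 of 22 weeks, and in EKO on WD 14 without replicate 1 of 22 weeks. In DKO it was 1 on NLD without replicate 2 of 22 weeks, and 0 on WD without any one library of 6 weeks or without replicate 3 of 22 weeks. Between the genotypes on NLD at 22 weeks it was 5 without the library that carries airway markers. For the response to WD the count was 4 without replicate 1 of EKO on WD, 7 without replicate 1 of DKO on NLD and 17 without replicate 2 of DKO on WD, all of 22 weeks. For the response to time it was 3 and 4 without replicates 1 and 3 of EKO on WD for 22 weeks, 5 without replicate 2 or 3 of EKO on WD for 6 weeks and 4 without replicate 3 of DKO on WD for 6 weeks.

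**Figure D4:**
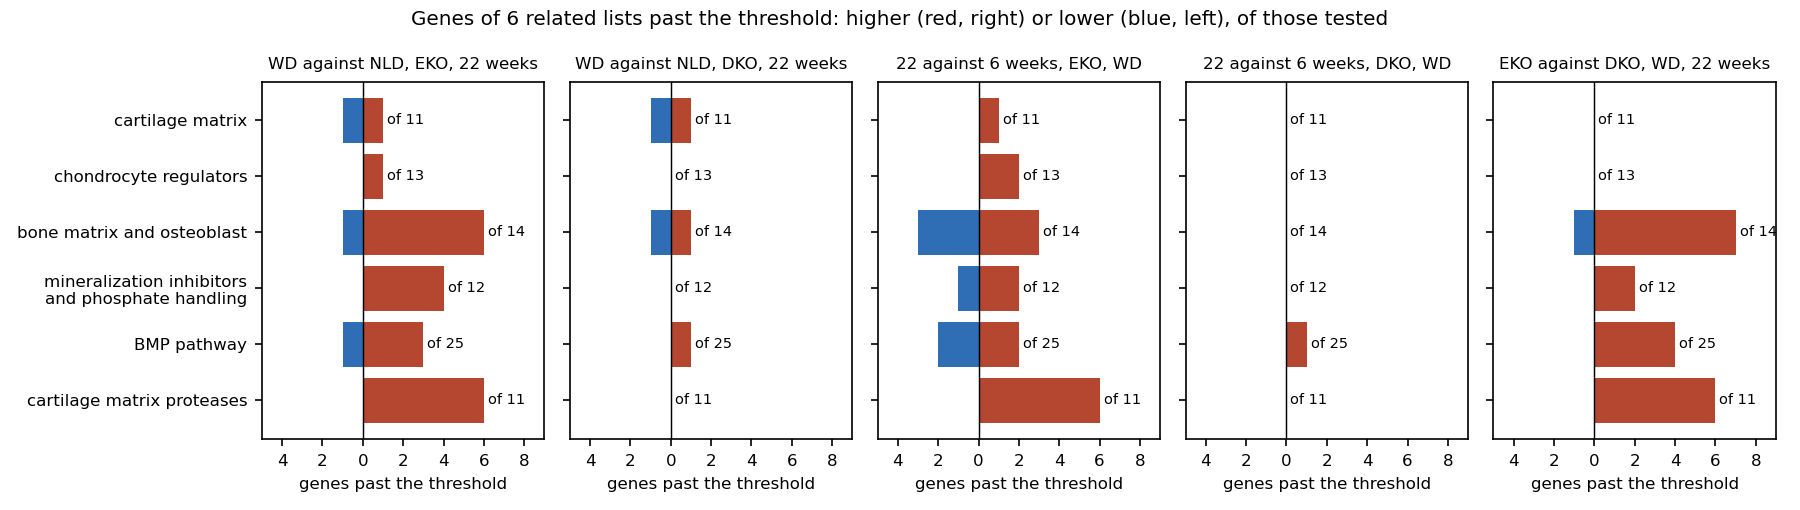
Number of genes past the threshold in each of 6 related lists, in 5 comparisons. Red bars to the right count genes that were higher in the first-named condition, blue bars to the left count genes that were lower, and the number tested stands beside each bar; most calls belong to comparisons that involve EKO on WD for 22 weeks.

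On WD at 22 weeks 19 of the 86 list genes were higher and 1 lower in EKO than in DKO, against 18.5% and 2.92% of all genes tested, and 13 were higher and 2 lower without the library that carries airway markers. Without replicate 1 or replicate 3 of EKO, 12 and 13 were called, and without the airway library 17.3% of all genes were. Mmp13 was higher by 2.75 ± 0.29 (SE, adjusted p = 1.4e-06 in limma) and Col1a1, the main collagen of bone and fibrous tissue, by 2.13 ± 0.36 (adjusted p = 2e-04). Without the library that carries airway markers these were 2.39 ± 0.25 and 1.73 ± 0.36. Phospho1, a phosphatase of mineralizing vesicles that is also abundant in red cell precursors, was lower in EKO by -3.25 ± 0.53 (adjusted p = 0.00014 in limma), or -3.15 ± 0.60 without that library. It held 141 ± 35.8 FPKM (SD, n = 3) in DKO and 15.8 ± 11.6 FPKM (n = 3) in EKO on WD for 22 weeks, and was as far apart on NLD, at 147 ± 63.9 and 22.5 ± 12.1 FPKM. None of 11 cartilage matrix genes and none of 13 chondrocyte regulators was past the threshold between the genotypes in limma, with 3 and 4 at an unadjusted p under 0.05. None was called without that library either.

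Markers of other cells moved with these comparisons. The 8 macrophage markers summed to 2315 and 3125 FPKM in EKO on WD for 22 weeks, 187 to 413 FPKM in DKO on WD for 22 weeks and 47.9 to 431 FPKM in the other 6 groups. Acan and Runx2 were highest in the same 2 EKO libraries. The group means of Col2a1, Chad and Ibsp were highest in DKO on WD for 22 weeks, where replicate 1 held 1.67, 26.2 and 0.655 FPKM. A link of the 10 genes to the macrophage sum was not tested. The 12 osteoclast markers, several of which macrophages share, summed to 422 and 455 FPKM in EKO and 117 to 148 FPKM in DKO on WD for 22 weeks, against 101 to 213 FPKM elsewhere. The summed level of 5 tendon markers, relevant because tendon expresses Comp and Chad, was 10.4 and 12.4 FPKM in EKO and 3.46 to 4.65 FPKM in DKO on WD for 22 weeks, against 4.97 to 12.1 FPKM elsewhere. Smooth muscle markers summed to 3610 and 3472 FPKM in EKO and to 1164, 3654 and 2436 FPKM in DKO on WD for 22 weeks, under the 4012 to 11449 FPKM of the other groups in every library. The 11 skeletal muscle markers summed to 19.1 to 353 FPKM in these 5 libraries and 16.2 to 1114 FPKM elsewhere. The 12 bone marrow and blood markers summed to 5519 and 1005 FPKM in EKO and 575 to 1780 FPKM in DKO, against 81.6 to 2826 FPKM elsewhere, most of it the hemoglobin gene Hbb-b1. Within DKO the sum was 127 to 329 FPKM on NLD for 22 weeks. Of the 7 markers tested, 3 were called higher on WD than on NLD in DKO at 22 weeks, with a median difference of 2.81 on the log2(FPKM + 1) scale, beside 0.841% of all genes. In EKO against DKO on WD 4 of the 7 were lower, with a median of -2.60, beside 2.92% of all genes. The 8 fibroblast markers summed to 2337 and 2162 FPKM in EKO on WD for 22 weeks against 1005 to 1404 FPKM on NLD. In DKO on WD the fibroblast sum was 775, 1958 and 1266 FPKM, the first, of replicate 1, being the lowest of the complete libraries. The 6 adipocyte markers summed to 1093 and 2354 FPKM in EKO on WD for 22 weeks against 3670 to 5849 FPKM on NLD, and 5 of the 6 were called lower on WD, beside 9.14% of all genes, with a median difference of -1.48. In DKO on WD they summed to 1786 to 3426 FPKM against 2509 to 4399 FPKM on NLD. The part of these cells in the levels of the 10 genes was not tested.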

How the data were processed

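The deposited FPKM values were made by the authors with TopHat 1.3.2, Bowtie 0.12.8, SAMtools 0.1.19 and the Cufflinks suite (Cuffdiff) on mm10; gene models and the Cufflinks version are not given in the sources used here. Reads were unpaired, of 50 nt. Members and lists were chosen with earlier results of these data known. Values were taken as log2(FPKM + 1); those averaging 1 FPKM or more were modelled with a mean for each group in limma 3.58.1 (R 4.3.3; trend and robust variances), and p-values were adjusted over 12849 genes per contrast (Benjamini-Hochberg, threshold 0.05, 2-sided). Zeros of the partial library were missing values. The fits comprise 12 comparisons and 2 differences of differences. The code was tested on simulated data. The labels do not say whether libraries of a group came from separate animals, so p-values measure the spread between libraries. Threshold calls of the 10 genes were left out, since the genes were chosen on these libraries and Col2a1 and Ibsp passed the filter only through WD at 22 weeks. Of the lists, up to 4 genes with the smallest p per list and comparison were named, with others of the list chosen after their values were seen (Bglap, Sp7, Ucma, Col10a1, Clec3a, Spp1); of each marker list the summed level is given. Promoter motifs were chosen after seeing the data. Alternatives were pseudocounts 0.1 and 5, filters of 0 and 5 FPKM, other treatments of the partial library, median-ratio rescaling, plain variances, a replicate block, each library left out and, chosen after seeing the data, the airway library left out with no filter. Columns of authors' comparisons were not present in the table used.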

Additional observations from a re-analysis of the deposited data

Results flagged for a closer look

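No level of the 10 genes stood apart by Dixon's test in the 4 libraries of DKO on NLD for 6 weeks, where chance alone marks about 1 group in 20. With 4 libraries that test marks only extreme values, so nothing is read from its outcome. Genes of the related lists whose response differed between EKO and DKO, by the direct test of that difference in limma, are given as values. For the response to WD at 22 weeks 11 of the 86 were past the threshold, beside 4.39% of all genes. All 11 had a larger value in EKO than in DKO. Of all genes tested, 459 were called with a larger value in EKO and 105 with a smaller one. The differences, on the log2(FPKM + 1) scale, were 2.57 for Col1a1, 2.32 for Postn, 2.31 for Col1a2 and 1.31 for Sparc among bone matrix genes. They were 1.34 for Enpp1, 1.06 for Bmper, 1.78 for Fstl1 and 1.59 for Grem1. Among the proteases they were 2.43 for Mmp13, 2.02 for Mmp14 and 1.87 for Mmp2. Without replicate 1 of EKO on WD for 22 weeks 4 of the 86 were past it, without replicate 1 of DKO on NLD 7, and without replicate 2 of DKO on WD 17. Without replicate 1 of DKO on WD, which carries airway markers, 8 were, and Enpp1, Sparc and Grem1 were not, with adjusted p of 0.11, 0.072 and 0.069 in limma. Enpp1 was lost under 13 of 24 alternatives, Grem1 under 11 of 23, Sparc under 9 of 24, Mmp2 under 4 of 24 and Mmp13 under 3 of 23, and each of the other 6 under 1. Counts of losses, here and elsewhere, can omit a setting under which the sign turned. With the zeros of the partial library kept, 0 of the 86 were past the threshold, and Col1a2, Fstl1, Mmp2 and Postn turned sign.

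For the response to time on WD 9 of the 86 were past the threshold, beside 8.97% of all genes. The values in EKO were larger by 3.13 for Mmp13, 1.93 for Mmp14, 1.40 for Mmp2, 0.93 for Adamts7, 1.69 for Grem1 and 1.07 for Runx1. They were lower, at -1.30 for Fgfr3, -2.85 for Phospho1 and -1.18 for Id1. Without replicate 1 or replicate 3 of EKO on WD for 22 weeks 3 and 4 were past it, without replicate 2 or replicate 3 of EKO on WD for 6 weeks 5, and without replicate 3 of DKO on WD for 6 weeks 4. Without the library that carries airway markers 9 were, but Mmp2 and Fgfr3 were not, with adjusted p of 0.11 and 0.083 in limma. Mmp2 was lost under 15 of 24 alternatives, Id1 and Fgfr3 under 11 of 24, Runx1 under 11 of 23, Phospho1 under 6 of 24, Grem1 under 4 of 23, Adamts7 under 2 of 23, Mmp13 under 1 of 23 and Mmp14 under none.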

How the results depend on the processing

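The differences of the 6 genes above the filter are values without a test. Over 7 comparisons each, 42 values in all, none moved by as much as 1 standard error without the filter, with median-ratio rescaling, with plain variances, with a replicate block or with the partial library left out. A pseudocount of 0.1 moved 14, one of 5 moved 17 the zeros of the partial library kept as measured moved 23, and no filter with the airway library left out moved 20. Leaving out 1 library of the groups compared moved 50 of 324 values. Only Comp and Cytl1 pass a filter of 5 FPKM, under which none of their 14 values moved.

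The 86 genes of the related lists changed more. With the zeros kept, the calls were 10 for WD against NLD in EKO at 22 weeks, 0 in DKO at 22 and at 6 weeks, 10 and 4 for 22 against 6 weeks in EKO on WD and NLD, 0 in DKO on WD, and 6, 1 and 0 between the genotypes on WD at 22 weeks and on NLD at 22 and 6 weeks. The differences of responses then gave 0 for diet and 1 for time. With that setting 15 values changed sign. For WD against NLD in EKO at 22 weeks these were Cbfb (-0.69), Fstl1 (-1.67), Mmp2 (-0.87) and Slc20a1 (-0.70). Between the genotypes on WD at 22 weeks they were Bmper (-0.086), Fstl1 (-1.37), Htra1 (-1.12), Mmp2 (-0.84) and Postn (-0.69). For the difference in response to diet they were Col1a2 (-0.71), Fstl1 (-0.92), Mmp2 (-0.41) and Postn (-0.33), for that in response to time Mmp2 (-0.88), and for 22 against 6 weeks in EKO on WD Mmp3 (-0.39). All 9 of these genes are listed at 0 in the partial library, so that this setting enters a missing value as 0. For WD against NLD in DKO at 22 weeks the calls were 2 with a pseudocount of 0.1, 3 with 5 and 3 with a filter of 5 FPKM. For 22 against 6 weeks in DKO on WD they were 0 with either pseudocount or that filter and 2 without a filter. A filter of 5 FPKM left 12 for 22 against 6 weeks in EKO on WD and 5 for the response to time, which was 4 with a pseudocount of 0.1 and no filter, a setting chosen after seeing the data. Leaving out any 1 of the 25 libraries gave 12 to 25 and 0 to 15 for WD against NLD at 22 weeks in EKO and DKO, 0 to 1 and 1 to 21 at 6 weeks, 14 to 23 and 0 to 1 for 22 against 6 weeks on WD, 10 to 27 and 0 to 1 on NLD, 12 to 28, 2 to 5 and 1 between the genotypes on WD and NLD at 22 weeks and NLD at 6 weeks, 4 to 17 for the response to diet and 3 to 10 for that to time. Of these extremes 21 and 5 came without replicate 1 of DKO on WD for 22 weeks, a library outside both comparisons. With no filter and that library left out, chosen after seeing the data, the calls were 21 for WD against NLD in DKO at 6 weeks, 6 between the genotypes on NLD at 22 weeks and 3 for 22 against 6 weeks in DKO on WD. Other than for the zeros kept, the cause was not tested.

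Libraries share only a replicate number: over 84 pairs of same-numbered libraries the deviations from the group means had a median correlation of 0.03 (-0.39 to 0.41). With a replicate block the list genes gave 1 and 2 for WD against NLD in DKO at 22 and 6 weeks and 0 for 22 against 6 weeks in DKO on WD. Depth is unknown, so the error of FPKM under 1, which holds for 4 of the 10 genes, could not be set. Groups of 2 or 3 libraries limit the rest.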
